A study of Mus musculus with 6 samples.

Results

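The subunits of the respiratory chain and of ATP synthase were described across B cell progenitors of old and young mice. They are the genes whose symbols name a subunit of NADH dehydrogenase (complex I, Nduf), succinate dehydrogenase (complex II, Sdh), the cytochrome bc complex (complex III, Uqcr), cytochrome c oxidase (complex IV, Cox4 to Cox8) or ATP synthase (complex V, Atp5). A gene was taken where a probe set of the array was assigned to it alone, and it was represented by its probe set with the highest mean. This gave 81 of the 19938 genes that had their own probe set, namely 35 of complex I, 4 of complex II, 8 of complex III, 17 of complex IV and 17 of complex V. Another 6 probe sets that name a subunit together with a second gene, those of Ndufb4, Cox7c and 1 of Ndufs5, were not used.

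Pro-B and pre-B cells, the bone marrow cells that rearrange immunoglobulin genes, were sorted, combined in 1 population, from BALB/c mice, an inbred strain, without further treatment. The cells came from old mice of 24 months (3 arrays) and were set against cells from young mice of 2 months (3 arrays), with 100 ng of RNA as the input of each array's amplification. The study's title names inflammation with age and the selection of oncogenic events in these cells. Whether an array holds the RNA of 1 mouse or of several is not given here, and p-values therefore reflect no more than the spread among these 6 arrays.

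The respiratory chain passes electrons from NADH and succinate through complexes I to IV to oxygen and pumps protons across the inner mitochondrial membrane, and complex V uses the returning protons to make ATP. Complexes I, III, IV and V combine subunits encoded in the nucleus with a few encoded in the mitochondrial genome, whereas complex II is encoded in the nucleus alone. In developing B cells, oxidative phosphorylation supplies energy for the divisions that follow heavy chain rearrangement. Several complex IV subunits also have paralogs that are known mainly from muscle, lung or testis.

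The arrays differed in signal as a whole, which touches every value given here, all of them log2 intensities unless a linear sum is named. A level of background (the receptor level) was taken from 1372 probe sets of olfactory and vomeronasal receptors, genes of sensory neurons, as their 95th percentile on each array. It lay at 6.31, 6.41 and 5.17 (log2 intensity) on old replicates 1 to 3 and at 4.81, 4.84 and 4.60 on the young arrays. Of 23410 probe sets tested, 3393, 3045 and 10738 lay above it on the old arrays, against 12067, 11988 and 13043 on the young arrays. Old replicates 1 and 2 therefore stood apart from the other 4 arrays, and results are given with and without them. Of 9 measured markers of B cell progenitors, 4, 3 and 8 were above the receptor level on old replicates 1 to 3 and 9 on each young array, and their summed linear intensity was 2776 to 7223 on the old and 8106 to 8633 on the young arrays. Old means were lower in 8 of the 9 and higher in Vpreb1. Vpreb1 measured 11.13, 11.69 and 10.82 on the old arrays, against 11.15, 10.76 and 11.07 on the young arrays. It was the brightest of the 9 on old replicates 1 and 2, so the sums there rest largely on it. All 8 markers of neutrophils, another marrow cell type, were above the receptor level on old replicate 3 and on the young arrays, and 2 and 3 of them on old replicates 1 and 2. Their sums were 1963 to 8424 on the old and 7925 to 10086 on the young arrays. Markers of T cells (5 genes), plasma cells (4), erythroid cells (3) and megakaryocytes (4) summed to at most 270 on any array, and those of monocytes and macrophages (5) to 200 to 615 on the old and 749 to 1337 on the young arrays. The part of these cells and of the array signal in the results was not tested, and fewer cells of a type cannot be told apart from less RNA per cell.

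Old means of most subunit genes were below the young means, but the old arrays disagreed and no gene passed the threshold. With limma at an adjusted p under 0.05, 0 of 81 genes were called, as were 0 of all 23410 probe sets (0%). At an unadjusted p under 0.05 there were 46 of the 81 genes, 43 of them lower, beside 46.8% of all probe sets in either direction and 21.9% lower. Among those above the receptor level on all 3 young arrays, there were 44 of 77 subunit genes and 6343 of 11655 tested probe sets, in either direction. Old means were lower in 71 genes and higher in 10, and the split was 75 to 6 with each array centred on its median and 54 to 27 after quantile normalization. In the same order, 8912, 11670 and 10908 of the 23410 tested probe sets were lower. Of the 11655 above the receptor level on all 3 young arrays, 8366, 9475 and 7389 were lower. The median difference, old minus young, was -1.42 on the log2 scale over the 81 genes and 0.35 over all tested probe sets, a shift that centring removes, so that the subunits lay at -1.77 relative to all. The median was -0.43 after quantile normalization, where it was 0.046 over all tested probe sets, and -0.88 without old replicate 1. Over the 11655 tested probe sets above the receptor level on all 3 young arrays the median was -0.71, and -0.40 after quantile normalization. Old values lay below all young values without overlap in 50 genes and above them in 4, where 22.9% and 36.1% of all tested probe sets did so. Of the 11655 probe sets above the receptor level on all 3 young arrays, 5231 and 1759 did so.

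**Figure D1:**
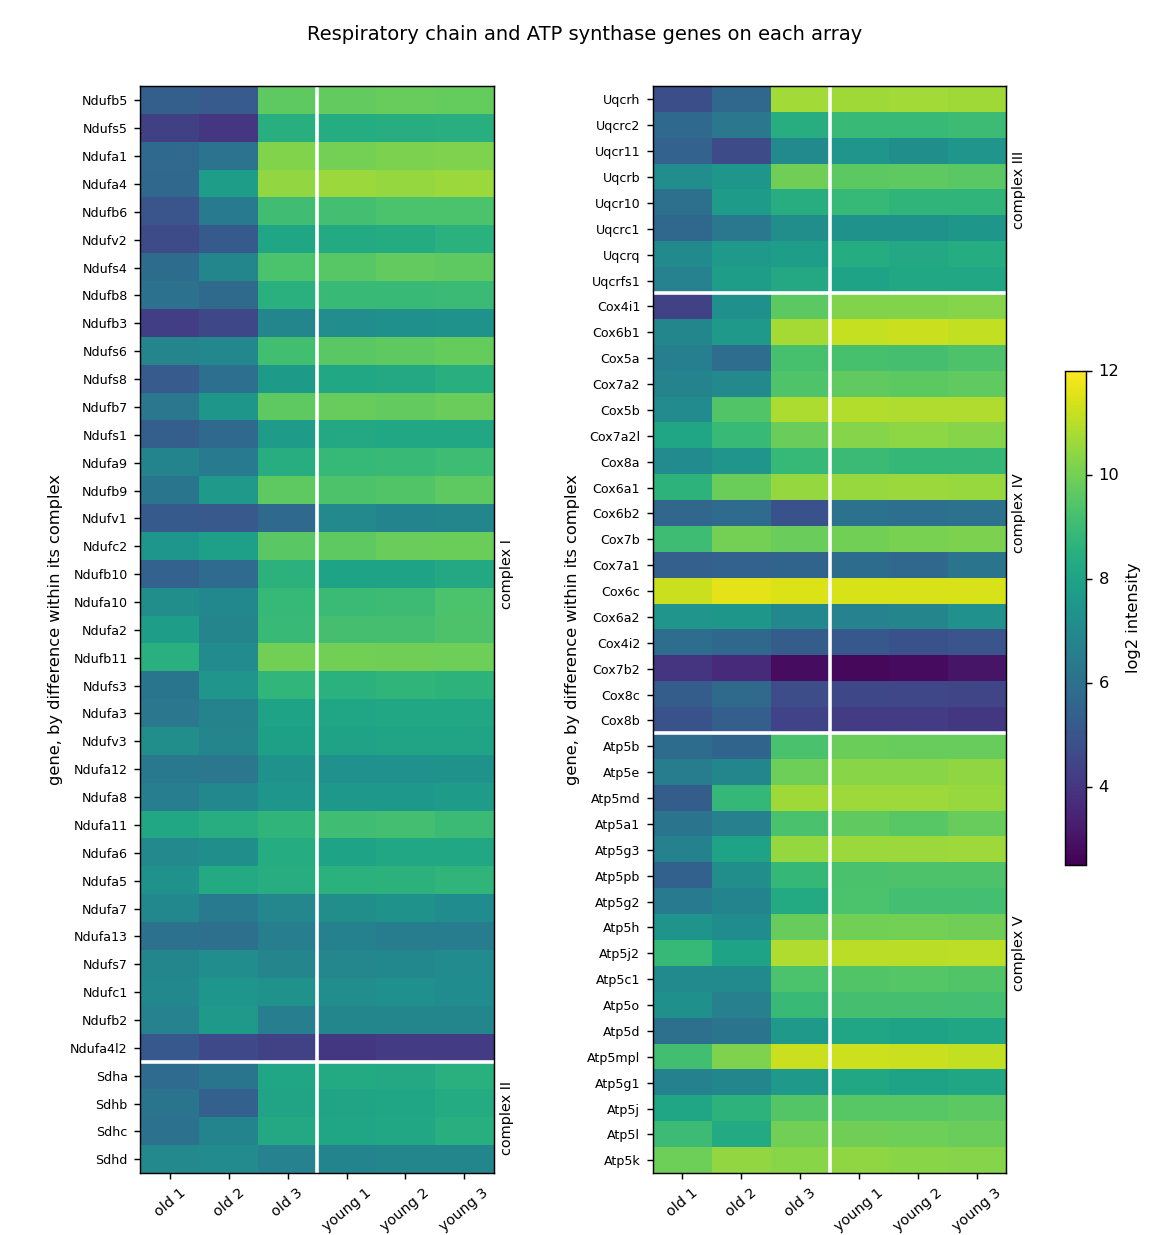
Log2 intensity (colour) of each of the 81 genes (rows, ordered within each complex by the old minus young difference, lowest at the top) on the 3 old and 3 young arrays (columns). Colours are to be read along a row, since probe sets differ in brightness. The columns of old replicates 1 and 2 are darker than the other 4 in most rows, and rows such as Cox6c and Atp5k keep nearly the same colour on all 6 arrays.

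Taken array by array, the lower values belonged to old replicates 1 and 2. Relative to the young mean the median over the 81 genes was -2.10 on old replicate 1, -1.89 on old replicate 2 and -0.15 on old replicate 3, beside 0.48, 0.43 and 0.05 over all tested probe sets. Over the 11655 probe sets above the receptor level on all young arrays these medians were -0.96, -0.85 and -0.14, on old replicate 3 close to the subunits. More than 1 log2 below the young mean were 60 genes on old replicate 1, 55 on old replicate 2 and 2 on old replicate 3, where 24.5%, 23.2% and 1.12% of all tested probe sets were. Among those 11655 probe sets the shares were 49.0%, 46.4% and 2.13%. The differences on old replicates 1 and 2 ran alike across the 81 genes (Pearson r = 0.854, Spearman rho = 0.841), and those with old replicate 3 less so (r = 0.224 and 0.252). All these differences use the same young mean, and the first pair also share the weak signal. Over all 23410 tested probe sets, the r was 0.934 between old replicates 1 and 2, and 0.563 and 0.589 between these and old replicate 3. Within complex IV the r with old replicate 3 was 0.451 and 0.432. Old replicate 2 was above old replicate 1 in 57 of the 81 genes, by over 1 log2 in 14 of them, and below it by over 1 log2 only in Ndufb11.

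**Figure D2:**
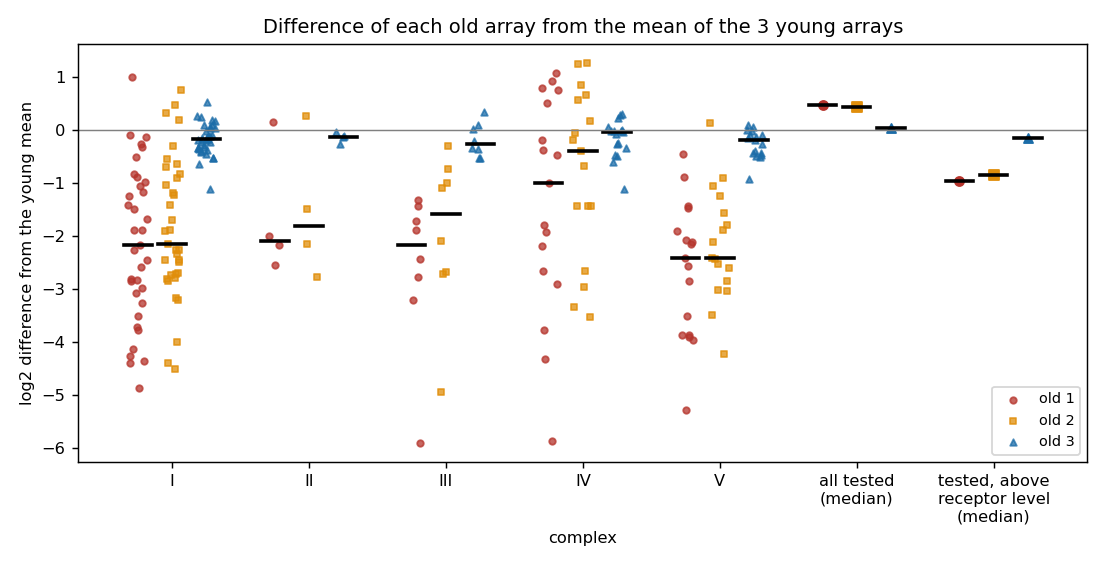
Log2 difference of each old array from the mean of the 3 young arrays (vertical axis), with 1 point per gene, by complex. Black bars are medians, and the last 2 positions give only the medians of all tested probe sets and of those above the receptor level on all young arrays. On old replicate 3 the points of every complex lie between -1.12 and 0.52, and on old replicates 1 and 2 they reach -5.90 and -4.94.

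Although their values were lower on old replicates 1 and 2, many subunit genes stayed among the brighter probe sets there. On old replicate 1, 42 of 81 genes (51.9%) lay above the receptor level, and on old replicate 2, 53 (65.4%). Among all tested probe sets these shares were 14.5% and 13%. Among the 77 subunit genes and the 11655 probe sets that were above the level on all young arrays, the shares were 54.5% against 27.3% on old replicate 1 and 68.8% against 24.8% on old replicate 2. The median rank of the subunits within an array was the 86.5, 92.3 and 93.6 percentile of tested probe sets on old replicates 1 to 3, against the 94.0, 94.0 and 93.8 percentile on the young arrays. Subunit genes are bright in young cells, and rank depends on that starting level, so these shares and ranks are a description.

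Many nuclear genes of respiration are known to be regulated by the factors NRF1, the ETS family member GABP and YY1, so their promoters were searched for a core of each motif on both strands: GCGCATGCG for NRF1, CCGGAAG for ETS factors and AAGATGGC for YY1. RefSeq (GRCm38.p6) held 71 promoters of 66 of the 81 genes, each a window of 300 bases around a transcript's start. The NRF1 core was found in 11.3% of the 71, against 1.75% of all 32851 promoters and 2.55% of the 19116 promoters of genes on the array. The ETS core was found in 23.9%, against 8.86% and 12.1%, and the YY1 core in 14.1%, against 2.75% and 3.19%. Of the 10 promoters with the YY1 core 7 belonged to complex I genes, which supplied 33 of the 71 promoters searched. The 30 genes with any of the 3 had a median old minus young difference of -1.69 and ranged from -3.61 to 0.09, and the 36 without them had -1.43 and ranged from -3.01 to 0.78. The presence of a core is not a measured binding site, and its absence from this window says nothing about the factor.

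For each core, a gene with a much lower old mean and a gene with little difference are printed below as examples. They were picked by these values, so the contrast within a pair is built in and says nothing about the core. Capitals mark the cores, and all sequences run 5′ to 3′ along the gene's strand. Uqcrh and Sdhd carry the ETS core on the opposite strand, Atp5g2 and Atp5k the NRF1 core, which reads on both strands with overlap, with an ETS core as well in Atp5k, and Ndufs4 and Ndufs7 the YY1 core after the start.
Uqcrh, chr4:116075021-116075320, minus strand: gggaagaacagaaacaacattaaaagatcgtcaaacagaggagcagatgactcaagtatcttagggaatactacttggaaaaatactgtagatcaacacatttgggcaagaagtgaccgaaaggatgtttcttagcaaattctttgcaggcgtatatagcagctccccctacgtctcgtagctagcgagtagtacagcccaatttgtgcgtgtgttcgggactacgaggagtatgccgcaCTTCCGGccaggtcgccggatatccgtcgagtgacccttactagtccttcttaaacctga
Sdhd, chr9:50603800-50604099, minus strand: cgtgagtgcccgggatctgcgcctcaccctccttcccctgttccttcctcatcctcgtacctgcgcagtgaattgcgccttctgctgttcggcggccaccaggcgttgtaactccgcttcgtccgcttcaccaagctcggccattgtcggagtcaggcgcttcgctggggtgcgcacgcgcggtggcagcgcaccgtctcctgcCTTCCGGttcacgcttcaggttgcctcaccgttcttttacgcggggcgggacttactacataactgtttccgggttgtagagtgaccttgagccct
Atp5g2, chr15:102670998-102671297, minus strand: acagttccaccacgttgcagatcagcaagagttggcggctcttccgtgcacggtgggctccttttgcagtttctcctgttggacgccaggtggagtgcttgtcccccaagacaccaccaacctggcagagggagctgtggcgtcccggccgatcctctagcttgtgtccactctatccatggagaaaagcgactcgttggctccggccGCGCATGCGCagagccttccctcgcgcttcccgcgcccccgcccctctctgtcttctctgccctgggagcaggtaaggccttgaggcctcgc
Atp5k, chr5:108434350-108434649, minus strand: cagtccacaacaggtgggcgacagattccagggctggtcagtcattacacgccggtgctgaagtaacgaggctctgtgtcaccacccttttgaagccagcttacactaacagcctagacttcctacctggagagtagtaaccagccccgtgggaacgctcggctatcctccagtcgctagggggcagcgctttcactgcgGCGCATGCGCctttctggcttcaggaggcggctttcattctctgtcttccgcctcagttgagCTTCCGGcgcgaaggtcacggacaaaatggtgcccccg
Ndufs4, chr13:114388045-114388344, minus strand: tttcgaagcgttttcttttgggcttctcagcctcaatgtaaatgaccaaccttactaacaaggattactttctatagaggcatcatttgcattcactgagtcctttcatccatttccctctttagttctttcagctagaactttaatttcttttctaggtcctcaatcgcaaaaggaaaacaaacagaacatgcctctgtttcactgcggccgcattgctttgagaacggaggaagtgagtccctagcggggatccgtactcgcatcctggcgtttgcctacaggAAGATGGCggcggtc
Ndufs7, chr10:80249199-80249498, plus strand: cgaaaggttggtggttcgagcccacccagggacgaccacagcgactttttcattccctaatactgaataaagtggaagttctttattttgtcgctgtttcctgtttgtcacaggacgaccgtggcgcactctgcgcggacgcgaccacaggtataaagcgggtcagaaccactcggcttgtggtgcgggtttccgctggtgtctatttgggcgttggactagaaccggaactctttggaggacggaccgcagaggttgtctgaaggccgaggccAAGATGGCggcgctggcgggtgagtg

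In complex I, where electrons enter from NADH, 32 of 35 genes had lower old means and 0 were called. The median differences from the young mean were -2.18, -2.16 and -0.18 on old replicates 1 to 3. Ndufv1, the subunit that binds NADH and FMN, had the smallest p of all 81 genes (adjusted p = 0.101 with limma). Ndufv1 measured 5.17, 5.15 and 5.76 on the old arrays, against 6.96, 6.78 and 6.85 on the young arrays. All 3 old arrays were lower than all young arrays, old replicate 3 included, and old replicates 1 and 2 were within the receptor level. Its means were 5.36 ± 0.34 and 6.86 ± 0.09 (SD, n = 3 each) in the old and young groups, a difference of -1.50 ± 0.24 (SE).

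Ndufs8, an iron-sulfur subunit of the arm that reaches ubiquinone, measured 5.23, 5.96 and 7.66 on the old arrays, against 8.21, 8.24 and 8.45 on the young arrays (difference -2.02 ± 0.59, SE, adjusted p = 0.101 with limma). Here too every old array was lower, by 0.64 on old replicate 3. Ndufb5, an accessory subunit of the membrane arm, had the lowest difference of the complex, with 5.37, 5.24 and 9.64 on the old arrays, against 9.73, 9.80 and 9.74 on the young arrays. Its difference of -3.01 ± 1.13 (SE) came from old replicates 1 and 2, which were within the receptor level. Ndufa1, an accessory subunit needed for assembly of the complex, measured 5.75, 6.10 and 10.21 on the old arrays, against 10.03, 10.12 and 10.17 on the young arrays, so that old replicate 3 was above all young arrays and the groups overlapped. Ndufa4, first assigned to complex I and later found with complex IV, stood at 5.68, 7.83 and 10.47, against 10.58, 10.50 and 10.58, with a gap of 2.15 between old replicates 1 and 2.

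A few complex I genes had old and young means close to each other. Ndufs7, the iron-sulfur subunit next to the ubiquinone site, whose promoter is printed above, measured 6.86, 7.17 and 6.82 on the old arrays, against 6.89, 6.95 and 7.06 on the young arrays. The groups overlapped, with a difference of -0.02 ± 0.21 (SE). Ndufc1 and Ndufb2, small accessory subunits, differed by 0.08 ± 0.23 and 0.11 ± 0.31 (SE). The sign of all 3 depended on the scaling, with -0.36, -0.27 and -0.24 when arrays were centred on their median and 0.91, 1.04 and 1.03 after quantile normalization. Ndufs4, an accessory subunit of the NADH-oxidising module that also carries the YY1 core, differed by -2.30 ± 0.81 (SE). Of the 6 measured core subunits, those shared with bacteria, the differences ran from -2.42 in Ndufv2 to -0.02 in Ndufs7, with a median of -1.71, against -1.42 over the 29 accessory genes. On old replicates 1 and 2, 15 of the 35 genes were above the receptor level on both arrays, among them Ndufb11 at 8.53 and 7.08 and Ndufa11 at 8.19 and 8.43. The other probe set of each was within the level on both arrays, at 5.28 and 4.88 in Ndufb11 and at 6.19 and 5.96 in Ndufa11. Ndufa11, which holds the membrane arm together, was at 8.70 on old replicate 3 and at 9.09, 9.18 and 8.96 on the young arrays, a difference of -0.63 ± 0.22 (SE) without overlap by the probe set used, -1.64 by its other probe set, and 0.65 after quantile normalization. Ndufa5 and Ndufc2, accessory subunits that were also above the level on all arrays, differed by -0.58 ± 0.32 and -1.47 ± 0.52 (SE), and after quantile normalization by 0.59 and -0.25.

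**Figure D3:**
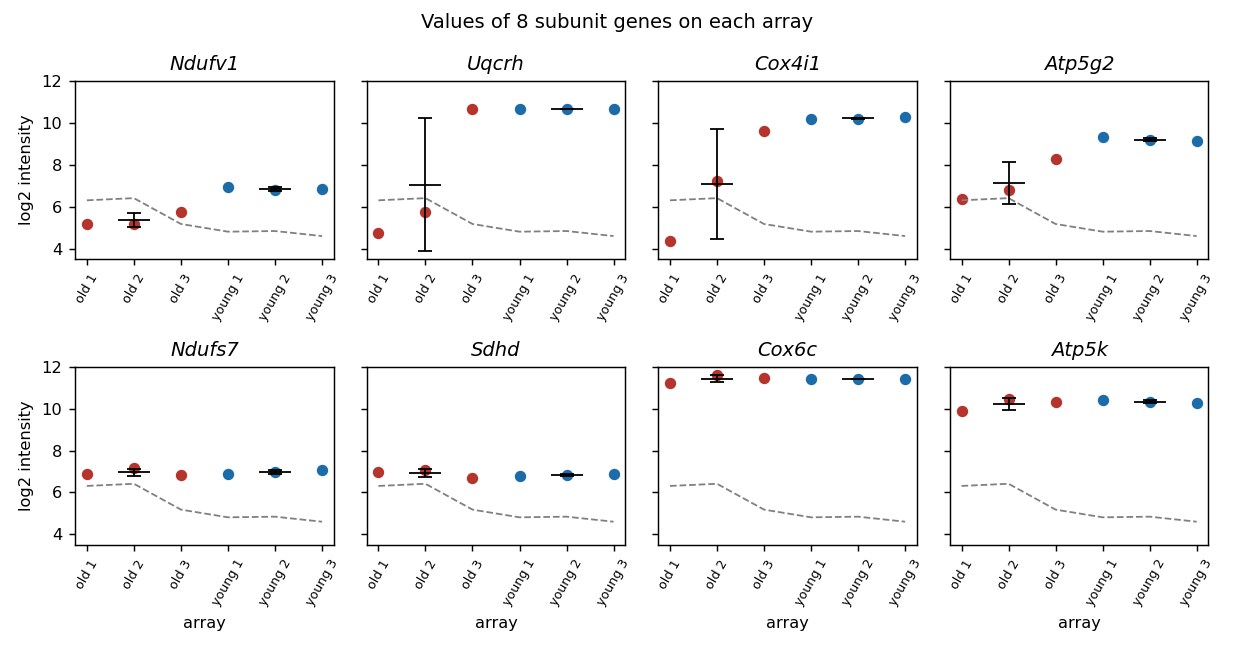
Log2 intensity (vertical axis) of 8 genes on each of the 3 old (red) and 3 young (blue) arrays. Black bars are the mean and SD of each group, and the dashed line is the receptor level of each array. In the upper 4 genes old replicates 1 and 2 lie below the young arrays, and in the lower 4 genes all arrays lie close together.

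Complex II, which takes electrons from succinate and is also an enzyme of the TCA cycle, split into 3 genes with lower old means and 1 without. Sdha, the flavoprotein that oxidises succinate, measured 5.82, 6.21 and 8.11 on the old arrays, against 8.32, 8.25 and 8.53 on the young arrays, a difference of -1.65 ± 0.58 (SE). All old arrays were lower, old replicate 3 by 0.26, and old replicates 1 and 2 were within the receptor level. Sdhb, the iron-sulfur subunit, stood at 6.17, 5.40 and 8.03, against 8.06, 8.10 and 8.34 (difference -1.63 ± 0.63, SE). Sdhc, a membrane anchor, stood at 6.08, 6.77 and 8.22, against 8.14, 8.17 and 8.45, with old replicate 3 inside the range of the young arrays. Sdhd, the other membrane anchor, measured 6.97, 7.09 and 6.71 on the old arrays, against 6.78, 6.85 and 6.86 on the young arrays. It was above the receptor level on all 6 arrays, and its difference of 0.09 ± 0.21 (SE) had no settled sign, being -0.25 when arrays were centred on their median and 0.996 after quantile normalization. The adjusted p of the 4 genes ran from 0.101 to 0.704 with limma.

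All 8 genes of complex III, which hands electrons from ubiquinol to cytochrome c, had lower old means, and 0 were called. Uqcrh, the hinge protein at the docking site of cytochrome c, had the lowest difference of the 81 genes, -3.61 ± 1.42 (SE). It measured 4.76, 5.73 and 10.69 on the old arrays, against 10.66, 10.68 and 10.66 on the young arrays. Old replicates 1 and 2 were within the receptor level, and old replicate 3 was above all young arrays by a small margin, so that the groups overlapped. Uqcrc2, a core protein, stood at 5.75, 6.27 and 8.42, against 8.90, 8.94 and 9.0 (difference -2.14 ± 0.66, SE, adjusted p = 0.101 with limma), with all old arrays lower. Uqcrb, which helps bind ubiquinone, stood at 7.17, 7.52 and 9.95, against 9.62, 9.66 and 9.55, above the receptor level on all 6 arrays. Uqcrq differed by -0.86 ± 0.27 (SE) without overlap. Uqcrfs1, the Rieske iron-sulfur protein, stood at 6.70, 7.82 and 8.23, against 8.0, 8.19 and 8.20, and had the smallest difference of the complex, -0.55 ± 0.40 (SE), with overlapping groups. After quantile normalization 2 of the 8 genes, Uqcrq (0.26) and Uqcrfs1 (0.50), had higher old means.

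In complex IV, which reduces oxygen, the 17 genes ranged from -3.15 to 0.78, with a median difference of -0.56. After quantile normalization this median was 0.053, and with all probe sets of a gene averaged it was -1.04, so no direction holds for the complex as a whole. These medians mix ubiquitous subunits with the Cox paralogs of other tissues given in the next paragraph. Without the 8 paralogs listed there, the median over the remaining 73 subunit genes of all complexes was -1.50. It was -0.59 after quantile normalization, with 52 means lower and 21 higher. Cox4i1, the ubiquitous form of the largest nuclear subunit, was lowest and measured 4.35, 7.25 and 9.61 on the old arrays, against 10.20, 10.19 and 10.27 on the young arrays. The old arrays lay far apart, yet all were lower, with a difference of -3.15 ± 1.18 (SE). Cox6b1, which sits where the monomers of the enzyme meet, stood at 6.85, 7.65 and 10.71, against 11.16, 11.24 and 11.13 (difference -2.77 ± 0.92, SE). Cox5b, a zinc-binding subunit, stood at 7.10, 9.43 and 10.83, against 10.89, 10.86 and 10.86, with old replicate 3 a little below the young arrays. Cox7a2l, which is known for joining complexes III and IV into supercomplexes, stood at 8.14, 8.88 and 9.82, against 10.28, 10.40 and 10.28 (difference -1.37 ± 0.42, SE), lower on every old array. None of these passed the threshold (adjusted p from 0.101 to 0.133 with limma).

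Paralogs known from other tissues mostly had higher old means. They are Cox4i2 (lung), Cox6a2, Cox7a1 and Cox8b (heart and skeletal muscle), Cox6b2, Cox7b2 and Cox8c (testis) and Ndufa4l2. Ndufa4l2 is a paralog of Ndufa4 induced in hypoxia, and only its symbol places it in complex I here. These genes had a median difference of 0.60, with 6 of 8 means higher in the old group and 0 called. Over all tested probe sets 14498 of 23410 means were higher and the median was 0.35. The median of the 8 was 0.26 when arrays were centred and 0.25 after quantile normalization. Of the 8, 4 (Ndufa4l2, Cox7b2, Cox8b and Cox8c) were within the receptor level on all 6 arrays, so the median rests in part on values that are not measured sizes. Cox4i2 measured 5.92, 5.66 and 5.30 on the old arrays, against 5.11, 4.88 and 4.99 on the young arrays, a difference of 0.63 ± 0.24 (SE), and was within the receptor level on old replicates 1 and 2. Cox6a2 was above it on all arrays, at 7.46, 7.52 and 6.93, against 6.71, 6.80 and 7.31, with overlap. Cox7a1 differed by -0.40 ± 0.22 and Cox6b2 by -0.56 ± 0.29 (SE). The ubiquitous partners Cox6a1, Cox7a2 and Cox8a differed by -0.89 ± 0.46, -1.95 ± 0.67 and -1.08 ± 0.46 (SE), though Cox6a1 and Cox8a had 0.27 and 0.053 after quantile normalization. With 36.1% of all tested probe sets higher in the old group without overlap, the 4 of 8 paralogs that were so lie near the background.

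In complex V all 17 genes had lower old means, also after centring, and 3 of 17 were higher after quantile normalization. The median difference was -1.78. Atp5b, the catalytic beta subunit, was lowest and measured 5.84, 5.57 and 9.29 on the old arrays, against 9.85, 9.78 and 9.77 on the young arrays (difference -2.90 ± 0.94, SE). Every old array was lower, and old replicates 1 and 2 were within the receptor level. Atp5mpl, a small membrane subunit, stood at 9.11, 10.16 and 11.22, against 11.26, 11.25 and 11.14. Atp5j2, subunit f of the membrane part, measured 8.86, 8.0 and 10.87 on the old arrays and between 11 and 11.04 on the young arrays. Atp5md, a membrane subunit linked to dimers of the enzyme, stood at 5.31, 8.81 and 10.64, against 10.62, 10.62 and 10.55, with the widest gap between old replicates 1 and 2 of all 81 genes, 3.51.

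Atp5g1, Atp5g2 and Atp5g3 encode the same mature subunit c, which forms the rotating ring, with different import sequences. Atp5g2 had the smaller p of the 3 and measured 6.36, 6.80 and 8.29 on the old arrays, against 9.32, 9.17 and 9.15 on the young arrays. All old arrays were lower and above the receptor level, old replicate 3 by 0.92 below the young mean, with a difference of -2.06 ± 0.49 (SE, adjusted p = 0.101 with limma). On old replicate 1 the margin was small, 6.36 against a level of 6.31, and its other probe sets were at 6.24 and 6.47 there. Atp5g1 stood at 6.66, 6.85 and 7.60, against 8.18, 7.99 and 8.10, and differed by -1.05 ± 0.29 (SE). Atp5g3 stood at 6.68, 8.0 and 10.50, against 10.58, 10.58 and 10.62, and differed by -2.20 ± 0.88 (SE), with old replicate 3 by 0.09 below the young mean. Atp5k, subunit e of the membrane part, measured 9.89, 10.46 and 10.30 on the old arrays, against 10.41, 10.33 and 10.26 on the young arrays. Its groups overlapped, with a difference of -0.12 ± 0.23 (SE) that was 0.89 after quantile normalization, and like Atp5g2 it carries the NRF1 core in the promoter shown above. Atp5l, subunit g, stood at 9.0, 8.31 and 9.98, against 9.92, 9.91 and 9.82, and its difference of -0.78 was 0.48 after quantile normalization. On old replicates 1 and 2, 12 of the 17 genes were above the receptor level on both arrays.

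Where a gene had several probe sets, these did not always give the same difference. Of the 81 genes 16 had more than 1, and their differences spread by 0.01 in Ndufs3 to 2.67 in Cox6c. Cox6c, a small membrane subunit of complex IV, measured 11.24, 11.59 and 11.49 on the old arrays by the probe set used here, against 11.43, 11.42 and 11.43 on the young arrays. Its other probe set stood at 5.68, 8.59 and 11.15, against 11.13, 11.07 and 11.18. The first gave a difference of 0.01 ± 0.20 and the second -2.65 ± 1.23 (SE), so no change of Cox6c as a gene is read from either. Cox7b differed by -0.43 ± 0.29 by the probe set used and by -1.65 ± 0.54 (SE) by the other, the first being 0.71 after quantile normalization, and Atp5pb, subunit b of ATP synthase, by -2.15 ± 0.77 and -0.54 ± 0.24 (SE). The probe set used was the one with the highest difference of its gene in 6 of the 16 genes. Several of these genes have processed pseudogenes, and which copy each probe set measures was not tested.

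**Figure D4:**
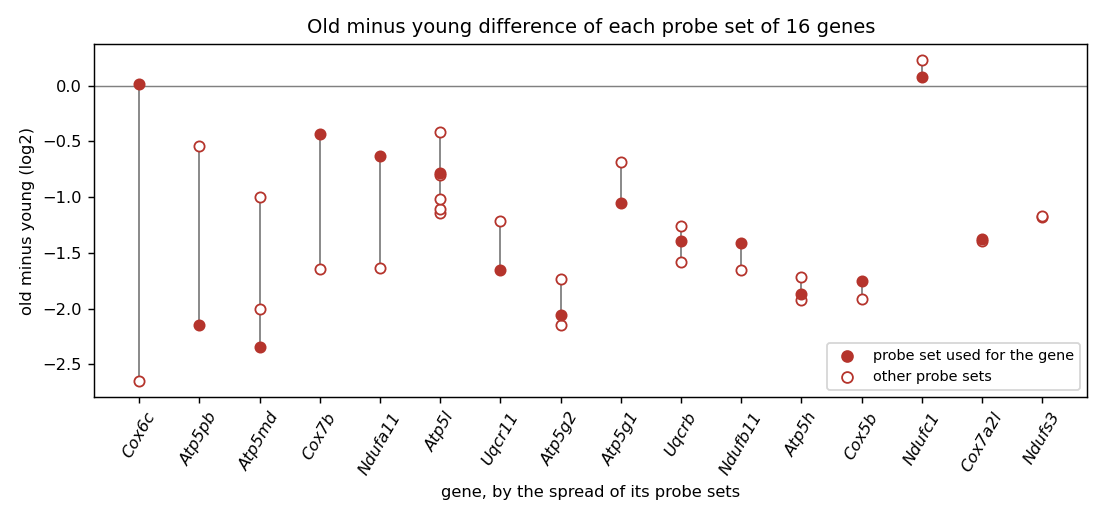
Old minus young difference (log2, vertical axis) of each probe set of the 16 genes with more than 1, ordered by the spread within a gene. Filled points are the probe sets used for the gene and open points the others. The probe sets of Cox6c lie at -2.65 and 0.01, and those of Ndufs3 lie on top of each other.

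Old replicate 3, which resembled the young arrays in signal, was also set against them alone, with the lone array assumed to vary like the young arrays. In this fit 5 of the 81 genes fell with limma at an adjusted p under 0.05 and 0 rose, where 5.24% and 1.76% of all tested probe sets did so, a share near the background. They were Ndufv1 (-1.10 ± 0.13, SE, adjusted p = 0.0105), Atp5g2 (-0.92 ± 0.13, SE, adjusted p = 0.0160), Cox4i1 (-0.61 ± 0.13, SE, adjusted p = 0.0364), Ndufs8 (-0.64 ± 0.15, SE, adjusted p = 0.0468) and Cox6b2 (-1.12 ± 0.13, SE, adjusted p = 0.00984). Cox6b2 measured 4.91 there, within the receptor level, where the young arrays had 6.03, 5.96 and 6.08, so the size of its difference is not measured. Of the 11655 probe sets above the receptor level on all young arrays, old replicate 3 lay below all young arrays in 6234 and above them in 2917. Among the 81 genes it lay below them in 54 and above them in 17, where 31.8% and 41.7% of all tested probe sets did so. The largest value above was Ndufb10, by 0.52 ± 0.14 (SE, adjusted p = 0.0687 with limma), an accessory subunit of complex I. Without old replicate 3, 66 of the 81 genes were called lower and 6 higher, beside 30.2% and 52.2% of all tested probe sets, and the 6 higher genes were all among the 8 tissue paralogs. Of the 11655 probe sets named above, 6955 were called lower and 2293 higher in that fit.

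Genes that work with the complexes are given for comparison. Cycs, cytochrome c itself, measured 4.98, 6.68 and 9.77 on the old arrays, against 10.02, 10.01 and 10.11 on the young arrays, and Cyc1, the cytochrome c1 subunit of complex III, at 5.42, 5.45 and 8.16, against 8.09, 8.21 and 8.17. Ndufab1, the mitochondrial acyl carrier protein that sits in complex I, differed by -1.69 ± 0.62 (SE). Old means were lower in 13 of 14 assembly factors of complex I (median difference -0.83), 4 of 4 of complex II (-0.99), 5 of 6 of complex III (-0.56), 18 of 21 of complex IV (-0.48) and 4 of 4 of complex V (-1.09), and 0 of them were called. After quantile normalization the assembly factors of complex IV had 11 higher and 10 lower means and a median of 0.10, so no direction holds for them. Atpaf1 and Atpaf2, chaperones of the catalytic head of ATP synthase, were lower on every old array. Atpaf1 stood at 4.68, 4.88 and 5.30, against 6.29, 6.20 and 6.44 (difference -1.36 ± 0.24, SE), and Atpaf2 at 5.29, 5.36 and 5.77, against 6.74, 6.70 and 7.12 (difference -1.38 ± 0.24, SE), both with an adjusted p = 0.101 (limma). Both were within the receptor level on old replicates 1 and 2. Ndufaf4, an assembly factor of complex I, measured 6.07, 6.66 and 6.59, against 7.53, 7.30 and 7.52 (difference -1.01 ± 0.24, SE). Tmem126b, an assembly factor of the membrane arm of complex I, measured 4.29, 4.80 and 6.23, against 6.97, 7.25 and 7.18 (difference -2.02 ± 0.49, SE). Lrpprc, which stabilises mitochondrial mRNAs and is needed for complex IV, measured 5.29, 5.20 and 6.70, against 7.38, 7.33 and 7.57 (difference -1.69 ± 0.42, SE), lower on every old array.

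Of 14 regulators of mitochondrial gene expression 11 had lower old means, and 0 were called. Tfam, which packages and transcribes mitochondrial DNA, measured 5.29, 4.47 and 6.08 on the old arrays, against 7.23, 7.42 and 7.74 on the young arrays, a difference of -2.19 ± 0.42 (SE), with all old arrays lower. Ppargc1a, a coactivator of mitochondrial genes, stood at 4.59, 5.14 and 4.58, against 5.75, 5.97 and 5.73 (difference -1.04 ± 0.24, SE), within the receptor level on all 3 old arrays. Among 7 carriers and porins of ATP, phosphate and metabolites, 6 had lower old means. Vdac1, the main porin of the outer membrane, measured 4.09, 4.37 and 6.55, against 6.99, 6.97 and 7.49, and Slc25a5, an ADP and ATP carrier, 7.20, 7.35 and 9.77, against 10.11, 10.20 and 10.24, each lower on every old array. Of 13 TCA cycle enzymes all had lower old means (median -1.60), and of 10 factors of the inner membrane 9 did (median -1.26).

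The 2 subunits encoded in the mitochondrial genome that had probe sets of their own had higher old means. COX2, a catalytic subunit of complex IV, measured 12.05, 11.85 and 11.51 on the old arrays, against 11.32, 11.18 and 11.02 on the young arrays, and its other probe set at 12.07, 11.80 and 11.44, against 11.27, 11.11 and 10.96. ND3, a membrane subunit of complex I, stood at 12.05, 11.12 and 10.63, against 10.61, 10.45 and 10.49, and its other probe set at 9.96, 8.90 and 8.30, against 8.23, 8.17 and 8.23. All 4 probe sets were higher on every old array than on every young array, as were 36.1% of all tested probe sets. The 4 were above the receptor level on all 6 arrays. Of the 11655 probe sets above it on all young arrays, 1759 were higher in this way. Differences were 0.63 ± 0.23 for COX2 and 0.75 ± 0.37 (SE) for ND3, and limma gave adjusted p = 0.101 and 0.135, above the threshold. They were 0.28 and 0.40 when arrays were centred on their median and 0.95 and 1.24 after quantile normalization.

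**Figure D5:**
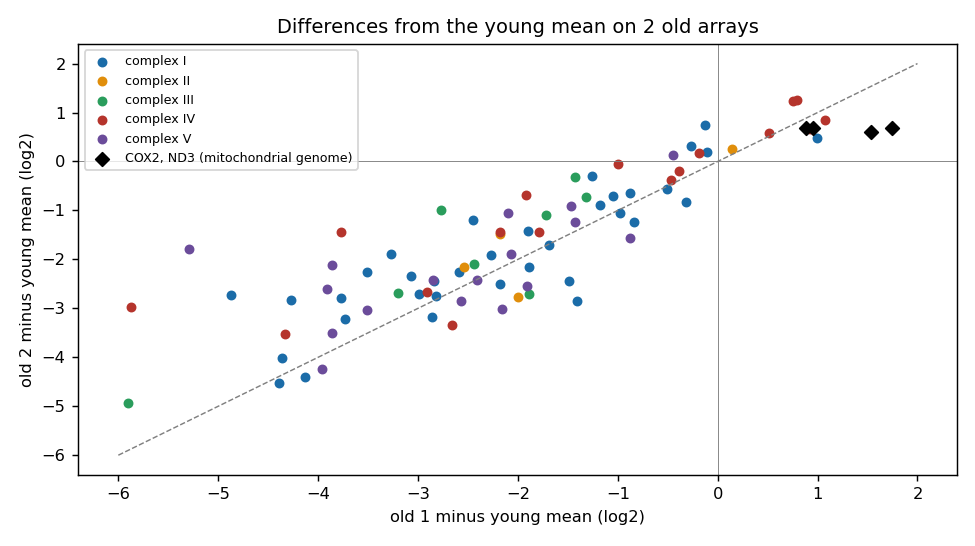
Difference from the young mean on old replicate 1 (horizontal axis, log2) and old replicate 2 (vertical axis, log2) of the 81 genes, coloured by complex, and of the 4 probe sets of COX2 and ND3 (black diamonds). The dashed line marks equal differences. Most genes lie in the lower left, down to -5.90 and -4.94 for Uqcrh, and the diamonds lie at the upper right.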

How the data were processed

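The authors deposited 1 table of probe set intensities for 6 whole-transcript arrays, made with RMA, per the submitters' processing notes. Its version is not given in the sources used here. The deposited intensity is linear, from 3.58 to 8502, and log2 of it was taken first. The platform annotation names 1 gene for 21789 of 28940 probe sets, several for 1621 and none for 5530. The 23410 that name a gene were tested. The gene IDs of all 81 members had the same symbol in RefSeq.

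Old and young arrays were compared with limma 3.58.1 in R 4.3.3, with age group as the only factor, a 2-sided moderated test and the Benjamini-Hochberg adjustment over all tested probe sets, at an adjusted p under 0.05. The code was tested on simulated data. The number of arrays limits the precision. Counting and plotting used Python 3.11.15 (pandas 2.3.3, matplotlib 3.10.9).

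Members, lists and tests were chosen with earlier results of these data known. Genes were named by a rule: in each complex the 3 with the highest young mean, the 2 with the smallest p, the highest and lowest difference, paralogs and their ubiquitous partners, genes whose probe sets differ in sign, and up to 4 above the receptor level on both weak arrays. Ndufs3, Ndufs4, Ndufs7, Ndufc1, Ndufb2, Ndufv2, Ndufb10 and Atp5pb were added after their values were seen. Lists of related genes are described by counts, with at most the 2 genes of smallest p named, and for some lists 1 or none.

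The groups share replicate numbers. Deviations from group means correlated at 0.157, 0.15 and 0.279 between same-numbered arrays, all over the limit of 0.1, so the numbers were treated as a pairing in an alternative fit, though arrays of different number (0.153 and 0.141) correlated as well. Array batches were not analysed here.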

Additional observations from a re-analysis of the deposited data

How the results depend on the processing

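The count of called probe sets, 0 with all 6 arrays, ranged from 0 to 19285 when each array was left out in turn, and that of the 81 subunit genes from 0 to 72. Both highest values came without old replicate 3, and every other omission gave 0. Estimated array weights, whose fit did not reach its tolerance, called 19998 probe sets and 72 subunit genes. These weights were 0.29, 2.60 and 0.045 on old replicates 1 to 3, so that fit nearly left out old replicate 3 and is not separate from the omission above. With old replicate 3 alone against the young arrays the counts were 1638 and 5, and the median differences were -0.15 over the 81 genes and -0.18, -0.13, -0.27, -0.041 and -0.19 in complexes I to V. After quantile normalization the medians were -0.43 over the 81 genes and -0.30, -0.70, -0.44, 0.053 and -0.71 in complexes I to V. Leaving out each array in turn, the median ranged from -2.02 (without old replicate 3) to -0.88 (without old replicate 1) over the 81 genes, and without old replicate 1 it was -1.19, -0.98, -0.77, -0.37 and -1.30 in complexes I to V. With the replicate number as a block the counts stayed at 0 and the medians at -1.42 over the 81 genes and -1.44, -1.43, -1.38, -0.56 and -1.78 in complexes I to V, so the pairing changed no call. Both counts also stayed at 0 without the probe sets below 4.32 in mean log2 level (the 30th percentile), with all 28940 probe sets tested, with arrays centred or quantile normalized, with trended robust moderation, at an adjusted p under 0.1, with a gene's probe sets averaged and, added after seeing the data, with the probe set of highest young mean. The median of complex IV was -0.73 without dim probe sets and -1.04 with probe sets averaged. On old replicates 1 and 2 many values lay within the receptor level, so the sizes of the differences there are not measured.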
